A study of Rattus norvegicus with 6 samples.

Results

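The chemokines and chemokine receptors of rat liver were followed on 55 probe sets of 42 genes, out of 31042 probe sets measured on the array. They are the probe sets whose single gene symbol begins with Ccl, Cxcl, Cx3cl, Xcl, Ccr, Cxcr, Cx3cr, Xcr or Ackr followed by a digit, with Cxcl1, Cxcl2 and Cxcr2 left out. The rule uses gene names alone. Ligands account for 36 probe sets of 27 genes, and receptors for 19 probe sets of 15 genes. A probe set is a group of short probes against 1 transcript, and 8 of the genes have more than 1.

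Liver RNA of BBDR rats was measured on 6 arrays, with 2 for each of 3 groups. In BBDR.lyp/lyp rats both copies of Gimap5 carry lyp, a frameshift mutation that causes T lymphopenia and, on the BBDR background, diabetes, and BBDR.+/+ rats of the same background carry 2 normal copies. BBDR.lyp/lyp rats were sampled at 50 days of age, before hyperglycemia (pre-hyperglycemia), and at 55 days, shortly after its onset (post-hyperglycemia), and BBDR.+/+ rats at 55 days, each age within 5 days. Post-hyperglycemia therefore differed from BBDR.+/+ in genotype and in hyperglycemia together, post- from pre-hyperglycemia in hyperglycemia and in age, and pre-hyperglycemia from BBDR.+/+ in genotype and in age. The lyp mutation is in the germline, so a difference in liver RNA need not arise in liver cells. The labels describe a 12 h fast and the methods free access to food, and the sex of the rats behind each array is not given in the sources used here. Nothing in the labels says that the 2 arrays of a group came from separate rats, so that the p-values rest on the spread between arrays, which may be technical. Those from limma draw that spread in large part from all probe sets together.

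Chemokines are small secreted proteins that bind receptors coupled to G proteins on leukocytes and guide their migration along a gradient. They are divided into CC, CXC, CX3C and XC families by the spacing of conserved cysteines. Some are made constantly and keep leukocytes in place or recirculating, among them Cxcl12, while others, among them Cxcl9, Cxcl10 and Ccl2, are induced by interferon or other inflammatory signals. The atypical receptors bind chemokines without the usual G protein signal and clear them. In liver, Kupffer cells, sinusoidal endothelium, stellate cells and hepatocytes can all secrete chemokines, whereas most of the receptors sit on the leukocytes that pass through.

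Signal is given as the deposited normalized value on the log2 scale, so a difference of 1 is a doubling, and the level of 1 probe set cannot be set against that of another. The 6 hepatocyte marker genes, among them albumin, lay at or above percentile 97.41 of all probe sets. The 2 arrays of a group correlated with r of 0.9959 to 0.9967 across probe sets, and the median signal of the arrays lay between 5.90 and 5.94. On the post-hyperglycemia arrays the control probe sets for the 3' end of beta-actin exceeded those for its 5' end by 2.11 and 2.04, against 1.12 to 1.51 on the other 4 arrays. For GAPDH the same difference was 1.37 and 1.33 against 0.444 to 0.720. Such a difference measures how much of the signal comes from the 3' end of a transcript, and here it separated the post-hyperglycemia arrays from all the others.

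Most members lay low in the range of the array. Of the 55, 30 were below the median of all probe sets by mean signal, 10 were in the top 30% and 5 in the top 10%. The brightest probe sets were those of Ccl9, Cxcl12, Ccl6, Cxcl11 and Ccl5, an order that does not rank their transcripts, since the 3 probe sets of Cxcl12 alone ran from 8.05 to 12.20 in mean signal. Of the 19 receptor probe sets, 16 were below the median, with percentiles from 12.42 to 81.46. The standard error of a difference between groups ran from 0.0988 to 0.182 over the members, with a median of 0.113.

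**Figure D1:**
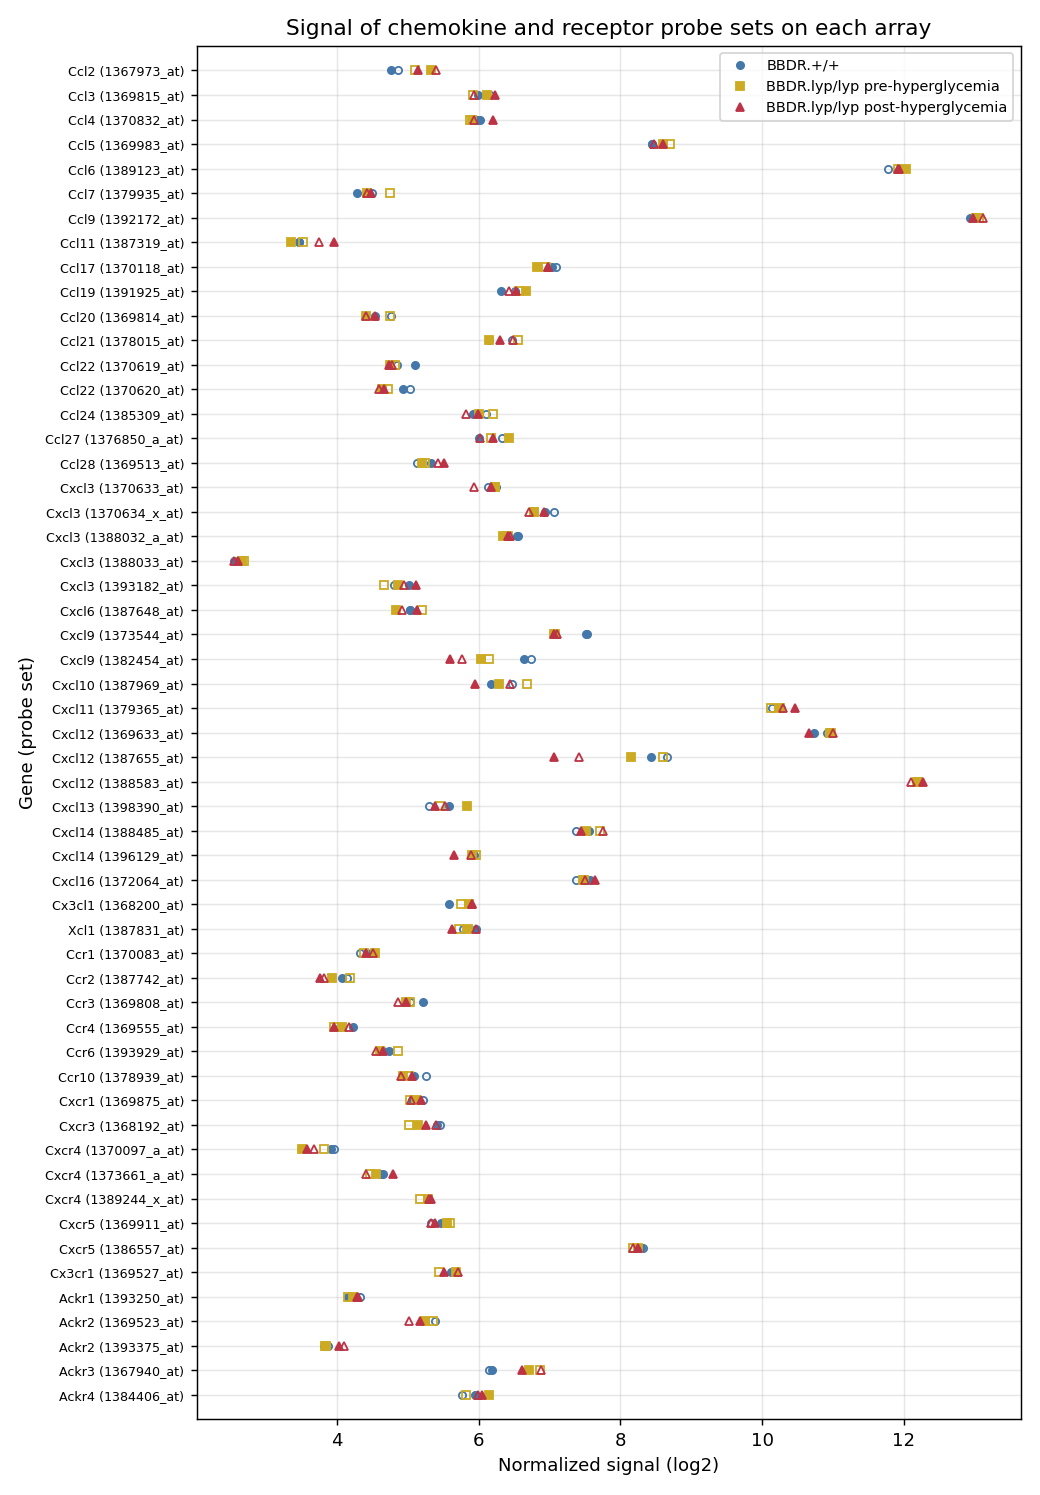
Normalized log2 signal of all 55 chemokine and chemokine receptor probe sets on each of the 6 arrays, on the horizontal axis, with 1 row per probe set. Filled symbols are replicate 1 and open symbols replicate 2 of a group. Ccl9, Ccl6 and Cxcl12 lie at the right, most receptors at the left, and for most rows the arrays lie close together.

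Few chemokine probe sets changed. Against BBDR.+/+, the post-hyperglycemia liver was lower in Cxcl9, a ligand of Cxcr3, on both of its probe sets and in Cxcl12 on 1 of 3, and higher in Ackr3, the atypical receptor of Cxcl12 and Cxcl11. Against pre-hyperglycemia it was lower on the same Cxcl12 probe set. Before hyperglycemia, BBDR.lyp/lyp liver was already lower than BBDR.+/+ on 1 Cxcl9 probe set and higher in Ackr3. All other members, 51 of 55 probe sets, passed in no comparison with limma at a Benjamini-Hochberg adjusted p under 0.05 over all 31042 probe sets, a threshold used throughout.

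Each count was of at most 3 members and is set beside the share over all probe sets. In post-hyperglycemia versus BBDR.+/+, 1 member, or 1.82%, was higher, where 1.89% of all probe sets were called higher. There 3 members of 2 genes, or 5.45%, were lower, where 3.26% of all were. In post- versus pre-hyperglycemia 0 members were higher, against 0.718% of all probe sets, and 1, or 1.82%, was lower, against 1.46%. For that count of 0 from limma, 4 members had a higher signal with an unadjusted p under 0.05, and the rank product and the methods' t-test also called 0. In pre-hyperglycemia versus BBDR.+/+ 1 member was higher and 1 lower, or 1.82% each, against 0.464% and 0.254% of all probe sets. A share of 1.82% is that of a single probe set. The median difference of the members was -0.02, -0.01 and -0.02 in the 3 comparisons, beside 0.01, 0.01 and 0.00 over all probe sets. At an unadjusted p under 0.05, 4 members were higher and 6 lower in post-hyperglycemia versus BBDR.+/+, or 7.27% and 10.9% of them, where 10.7% and 8.98% of all probe sets were. In post- versus pre-hyperglycemia these were 4 and 3 members, or 7.27% and 5.45%, beside 7.29% and 7.65% of all. In pre-hyperglycemia versus BBDR.+/+ they were 2 and 5 members, or 3.64% and 9.09%, beside 6.43% and 4.95% of all. Groups that did not overlap were common. In post-hyperglycemia versus BBDR.+/+, 26.7% of all probe sets were higher and 22.1% lower without overlap, beside 11 and 17 of the 55 members. In post- versus pre-hyperglycemia these were 23.6% and 20.9%, beside 13 and 11 members. In pre-hyperglycemia versus BBDR.+/+ they were 21.6% and 21.0%, beside 8 and 14 members. How many of all probe sets had all 4 BBDR.lyp/lyp arrays on 1 side of both BBDR.+/+ arrays was not counted. Where that pattern is given below, it describes the arrays only. Each pair of comparisons shares 1 group of arrays, so their values are not independent of each other.

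**Figure D2:**
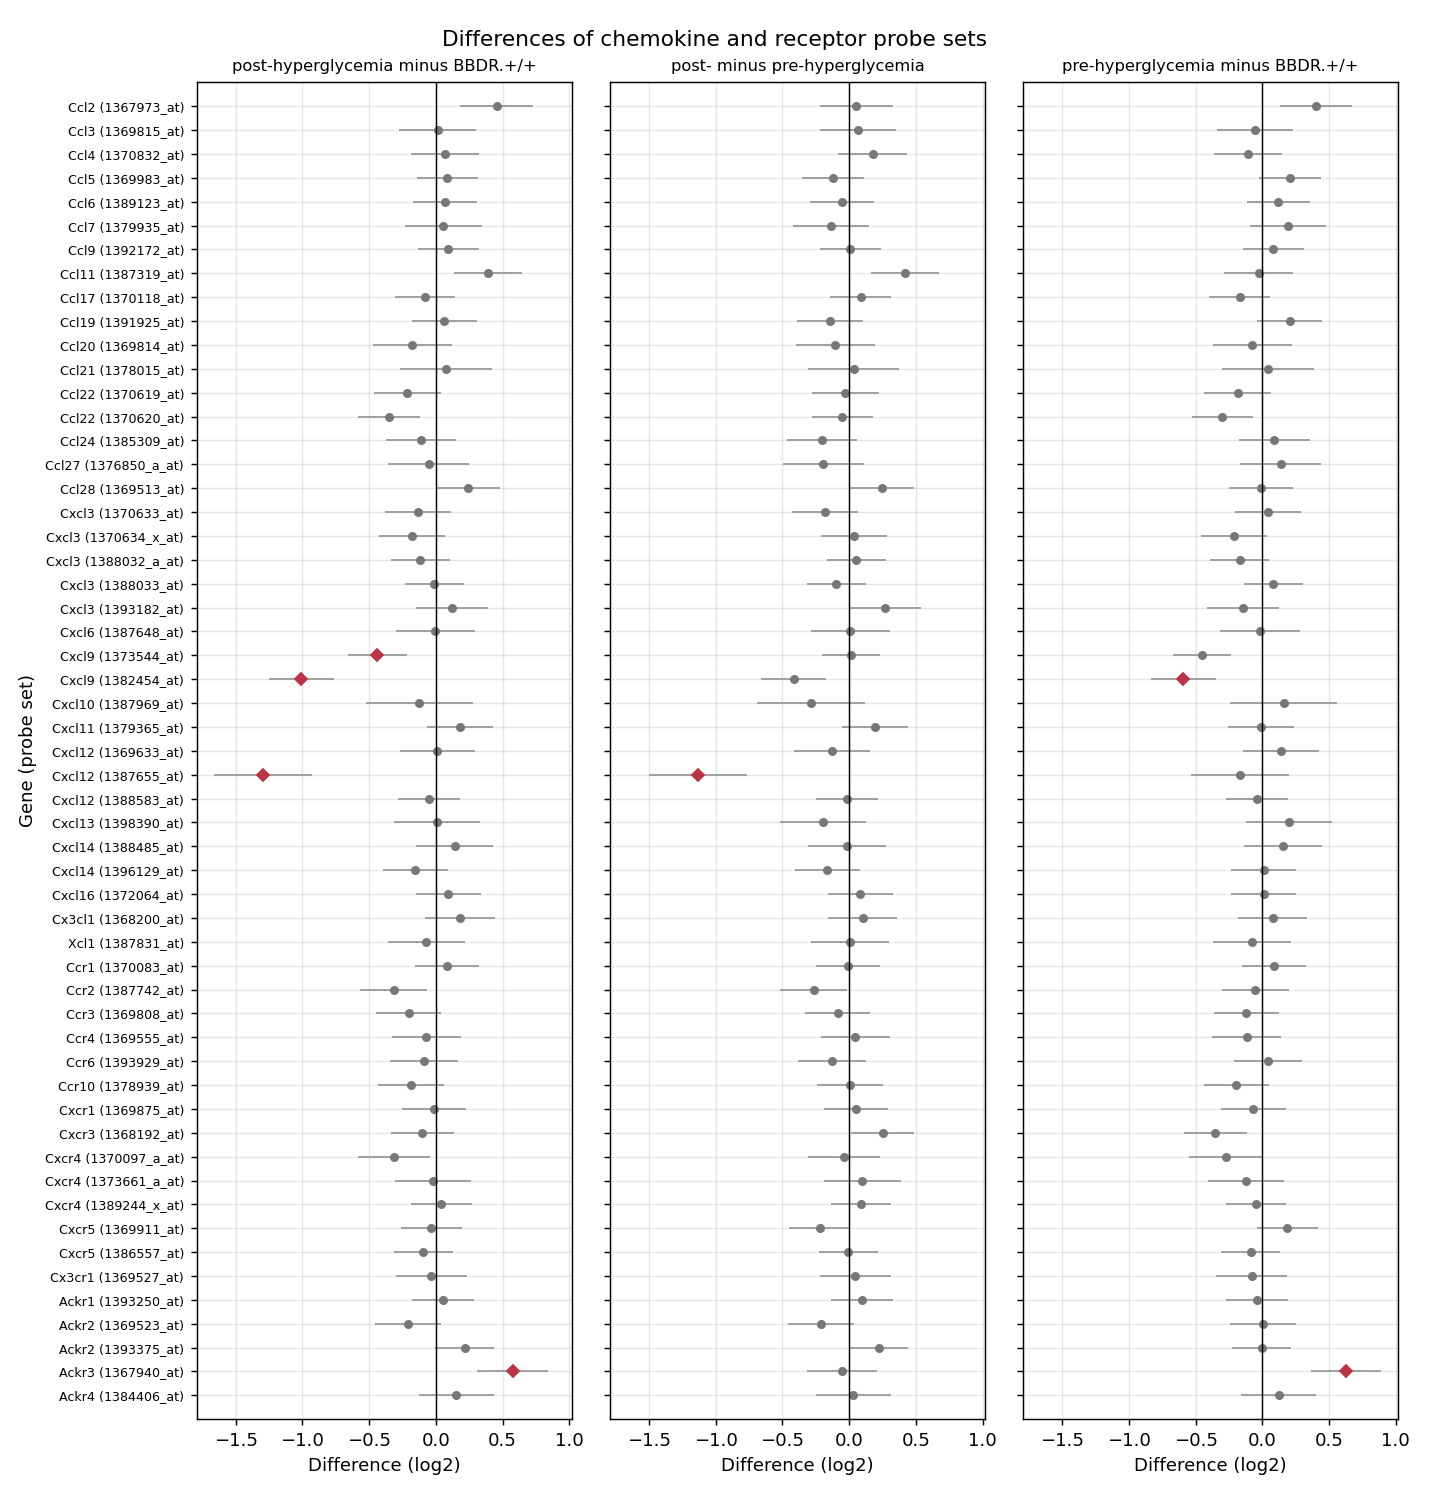
Log2 difference of each member probe set in each of the 3 comparisons, 1 per panel, on the horizontal axis. Bars are 95% intervals from limma and red diamonds are the probe sets that passed. Cxcl9, 1 Cxcl12 probe set and Ackr3 stand apart, and most other intervals hold 0.

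Cxcl9 draws activated T cells and NK cells through Cxcr3 and is a classical target of interferon gamma. On the Cxcl9 probe set 1382454_at, the BBDR.+/+ arrays read 6.63 and 6.73, the pre-hyperglycemia arrays 6.04 and 6.15, and the post-hyperglycemia arrays 5.59 and 5.76. The 3 groups did not overlap, with BBDR.+/+ highest and post-hyperglycemia lowest. Post-hyperglycemia fell by 1.01 from BBDR.+/+ (SE 0.11, 95% interval -1.25 to -0.76, limma adjusted p = 0.000952), a 2.01-fold lower signal. Pre-hyperglycemia fell by 0.59 from BBDR.+/+ (95% interval -0.84 to -0.35, limma adjusted p = 0.0439). Between the BBDR.lyp/lyp groups the difference of -0.41 (95% interval -0.66 to -0.17) did not pass, with a limma adjusted p of 0.09. In bulk liver RNA, fewer cells of a type and less RNA per cell cannot be told apart. With the replicate number as a block the same -0.41 passed, at a limma adjusted p of 0.0456.

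The other Cxcl9 probe set, 1373544_at, read 7.53 and 7.52 in BBDR.+/+, 7.06 and 7.08 in pre-hyperglycemia and 7.07 and 7.10 in post-hyperglycemia. Here both BBDR.lyp/lyp groups lay together below BBDR.+/+. Post-hyperglycemia fell by 0.44 from BBDR.+/+ (SE 0.10, limma adjusted p = 0.0303), while the difference of pre-hyperglycemia, -0.45, missed the threshold with a limma adjusted p of 0.0774. Post- minus pre-hyperglycemia was 0.02 (95% interval -0.20 to 0.23) on this probe set. On both probe sets all 4 BBDR.lyp/lyp arrays lay below both BBDR.+/+ arrays, and the difference in size between the probe sets was not tested.

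With each array left out in turn, the difference of 1382454_at between post-hyperglycemia and BBDR.+/+ kept passing, from -1.09 to -0.92. The pre-hyperglycemia difference of 1382454_at passed no longer without any 1 of its 4 arrays (-0.54 without pre-hyperglycemia replicate 1, -0.65 without replicate 2, -0.64 without BBDR.+/+ replicate 1 and -0.54 without replicate 2). The post-hyperglycemia difference of 1373544_at likewise passed no longer without any 1 of its 4 arrays (-0.43 and -0.44 without BBDR.+/+ replicates 1 and 2, -0.42 and -0.46 without post-hyperglycemia replicates 1 and 2), nor by rank product.

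Cxcl9 lies beside Cxcl10 and Cxcl11, the other ligands of Cxcr3, as neighbouring protein-coding genes on chromosome 14 of the rat GRCr8 assembly. The stretches before and across their starts are printed because the 3 genes are neighbours that share a receptor while only Cxcl9 was called, and that of Cxcl12 because it was the other ligand called. The promoters come from RefSeq (GRCr8), run 5′ to 3′ from 250 bases before the gene start to 50 after it, and were given for 32 of the 42 member genes. Those of Cxcl10 and Cxcl11 were added after the values were seen. Capitals mark matches on either strand to an NF-kB core (GGG, then 5 bases of any kind, then CC) or to an interferon element (GAAA, then 2 bases of any kind, then GAAA). All 4 lie on the plus strand, Cxcl9 at chr14:16006916-16007215, Cxcl10 at chr14:15988816-15989115, Cxcl11 at chr14:15973478-15973777 and Cxcl12 at chr4:152060531-152060830.
Cxcl9: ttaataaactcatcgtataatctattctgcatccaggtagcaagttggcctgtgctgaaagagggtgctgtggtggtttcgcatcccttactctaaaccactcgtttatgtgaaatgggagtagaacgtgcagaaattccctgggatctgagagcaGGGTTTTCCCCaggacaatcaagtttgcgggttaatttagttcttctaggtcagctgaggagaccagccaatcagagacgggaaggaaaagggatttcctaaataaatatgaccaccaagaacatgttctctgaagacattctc
Cxcl10: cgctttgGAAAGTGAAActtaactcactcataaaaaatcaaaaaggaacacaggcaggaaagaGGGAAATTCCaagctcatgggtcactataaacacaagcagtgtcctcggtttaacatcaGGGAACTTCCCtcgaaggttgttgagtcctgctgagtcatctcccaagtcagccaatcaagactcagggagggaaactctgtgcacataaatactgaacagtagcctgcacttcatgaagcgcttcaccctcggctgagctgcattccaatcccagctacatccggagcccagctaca
Cxcl11: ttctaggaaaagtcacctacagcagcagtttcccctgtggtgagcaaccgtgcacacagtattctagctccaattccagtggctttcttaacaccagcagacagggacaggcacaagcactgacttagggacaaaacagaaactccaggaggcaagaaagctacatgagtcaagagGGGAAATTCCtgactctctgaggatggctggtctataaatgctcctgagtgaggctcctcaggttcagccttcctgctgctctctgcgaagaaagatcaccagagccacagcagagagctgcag
Cxcl12: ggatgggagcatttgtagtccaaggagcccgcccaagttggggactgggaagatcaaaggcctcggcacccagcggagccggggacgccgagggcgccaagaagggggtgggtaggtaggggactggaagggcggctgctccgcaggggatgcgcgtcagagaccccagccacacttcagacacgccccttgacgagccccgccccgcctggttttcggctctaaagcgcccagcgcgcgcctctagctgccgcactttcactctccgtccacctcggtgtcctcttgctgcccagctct

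The Cxcl9 window holds overlapping NF-kB core matches at positions -94 and -93 relative to the start, where a position is the first base of the match, and no interferon element. The Cxcl10 window holds NF-kB core matches at -187, -128 and -127 and an interferon element at -243. The Cxcl11 window holds 1 NF-kB core match at -74, and the Cxcl12 window none of either kind. The NF-kB letters are common, in 47.3% of 33469 rat promoters of this length and in 16 of the 32 member promoters. The interferon letters are rarer, in 3.92% of all promoters and in 2 of the 32. A match describes these letters only, and the lack of one says only that they are not in this window.

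Cxcl10 and Cxcl11 did not pass in any comparison. Cxcl10 read 6.17 and 6.47 in BBDR.+/+, 6.28 and 6.68 in pre-hyperglycemia and 5.95 and 6.45 in post-hyperglycemia. The groups overlapped, and post-hyperglycemia minus BBDR.+/+ was -0.12 (95% interval -0.53 to 0.28), an interval that also holds the -0.44 of the second Cxcl9 probe set. Cxcl11, one of the brightest members, read 10.27 and 10.13 in BBDR.+/+, 10.26 and 10.12 in pre-hyperglycemia and 10.47 and 10.30 in post-hyperglycemia, a difference of 0.18 from BBDR.+/+ (95% interval -0.06 to 0.43). The receptor of all 3, Cxcr3, found on activated T cells and NK cells, read 5.41 and 5.45 in BBDR.+/+, 5.15 and 5.01 in pre-hyperglycemia and 5.26 and 5.40 in post-hyperglycemia. Its pre-hyperglycemia arrays were the lowest, without passing (-0.35 from BBDR.+/+, limma adjusted p = 0.214).

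**Figure D3:**
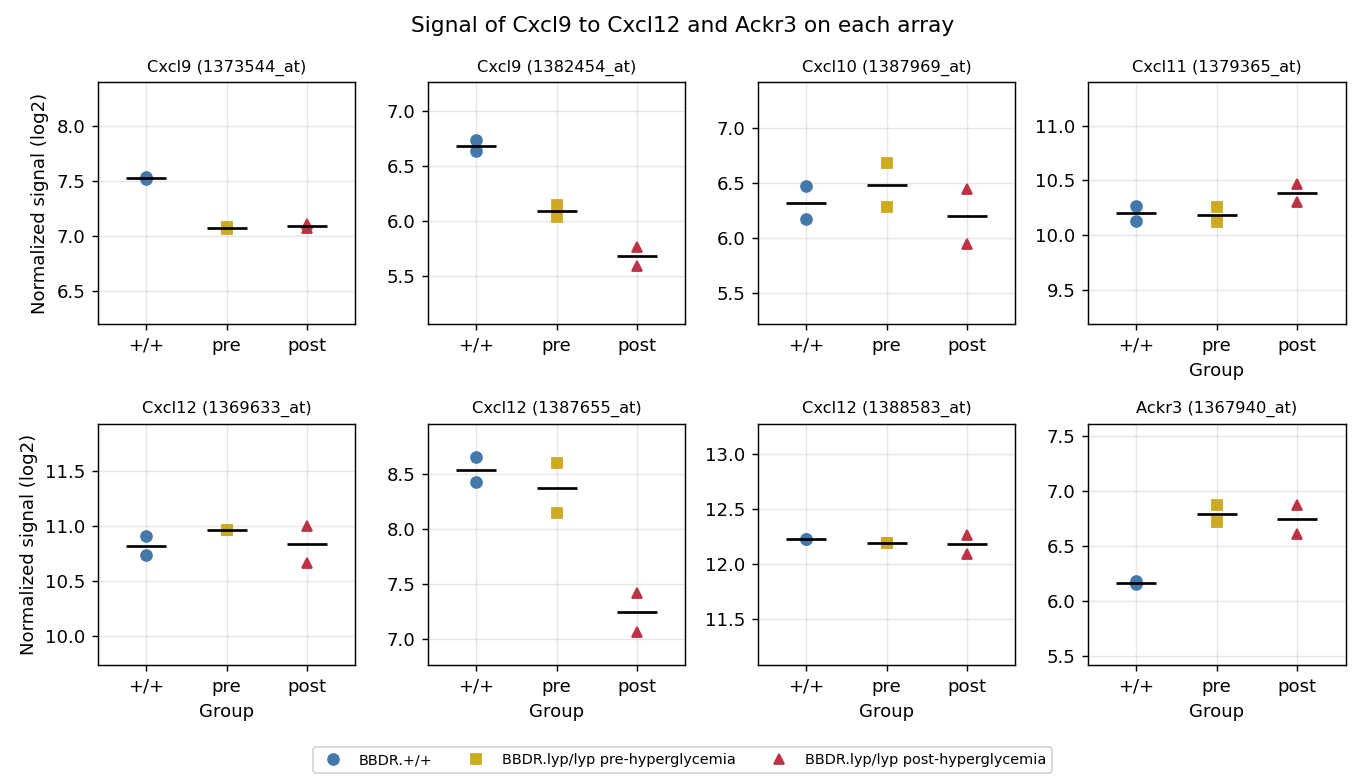
Normalized log2 signal, on the vertical axis, of the Cxcl9, Cxcl10, Cxcl11, Cxcl12 and Ackr3 probe sets on each array, by group. Points are arrays and black lines group means, and the vertical axes have the same span but different positions. Cxcl9 is lower in both BBDR.lyp/lyp groups, Cxcl12 is lower in post-hyperglycemia on the middle probe set alone, and Ackr3 is higher in both BBDR.lyp/lyp groups.

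Cxcl12 is made by stromal cells and sinusoidal endothelium and retains leukocytes and progenitors through Cxcr4. Its probe set 1387655_at read 8.43 and 8.65 in BBDR.+/+, 8.15 and 8.60 in pre-hyperglycemia, and 7.07 and 7.42 in post-hyperglycemia. Both post-hyperglycemia arrays lay below all the others, and the other groups overlapped. The signal fell by 1.30 from BBDR.+/+ (SE 0.17, 95% interval -1.66 to -0.93, limma adjusted p = 0.00194), which is 2.46-fold, and by 1.13 from pre-hyperglycemia (95% interval -1.50 to -0.76, limma adjusted p = 0.008), which is 2.19-fold. Pre-hyperglycemia minus BBDR.+/+ was -0.17 (limma adjusted p = 0.776).

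The other Cxcl12 probe sets, which were brighter, did not show it. On 1388583_at the arrays read 12.23 and 12.23 in BBDR.+/+, 12.19 and 12.20 in pre-hyperglycemia and 12.27 and 12.10 in post-hyperglycemia. On 1369633_at they read 10.74 and 10.91, 10.97 and 10.96, and 10.67 and 11.01. The groups overlapped, and post-hyperglycemia minus BBDR.+/+ was -0.05 (95% interval -0.28 to 0.18) and 0.01 (95% interval -0.27 to 0.29), intervals that do not reach that of 1387655_at. Where on the transcript each probe set lies was not analysed here. The lower signal thus held for 1 Cxcl12 probe set of 3.

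The Cxcl12 difference from BBDR.+/+ passed with each array left out, from -1.48 to -1.12, but that from pre-hyperglycemia was lost on leaving out replicate 2 of pre-hyperglycemia (-0.90) or replicate 1 of post-hyperglycemia (-0.95). Averaged over the 3 probe sets, Cxcl12 was -0.45 in post-hyperglycemia versus BBDR.+/+ (limma adjusted p = 0.0348) and -0.42 versus pre-hyperglycemia, where it no longer passed. The post-hyperglycemia arrays are also those with the larger 3' to 5' difference of beta-actin and GAPDH. With that difference as a covariate, the Cxcl12 value was -0.05 against BBDR.+/+ and -0.04 against pre-hyperglycemia, the Cxcl9 values -0.56 on 1382454_at and -0.42 on 1373544_at, and the Ackr3 value 0.84. No member was called in that fit by limma in any comparison. There 3, 2 and 7 members had an unadjusted p under 0.05, beside 2171, 2186 and 3550 of all 31042 probe sets. Because the measure separates the post-hyperglycemia arrays from the rest, it and that group cannot be told apart. It does not separate the other groups, between which the covariate left Ackr3 at 0.66 (limma adjusted p = 0.0985) and Cxcl9 on 1382454_at at -0.53 (limma adjusted p = 0.115).

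Ackr3 (1367940_at) takes up Cxcl12 and Cxcl11 and so lowers their local level. It read 6.18 and 6.15 in BBDR.+/+, 6.71 and 6.87 in pre-hyperglycemia and 6.61 and 6.87 in post-hyperglycemia. Both BBDR.lyp/lyp groups lay above BBDR.+/+ and overlapped each other. Ackr3 rose by 0.57 in post-hyperglycemia versus BBDR.+/+ (SE 0.12, 95% interval 0.31 to 0.84, limma adjusted p = 0.0209), which is 1.49-fold, and by 0.63 in pre-hyperglycemia versus BBDR.+/+ (SE 0.12, limma adjusted p = 0.0477), which is 1.54-fold. Post- minus pre-hyperglycemia was -0.05 (95% interval -0.32 to 0.21).

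The post-hyperglycemia call of Ackr3 was lost without BBDR.+/+ replicate 1 (0.59) or 2 (0.56), without post-hyperglycemia replicate 2 (0.44) and by rank product. The pre-hyperglycemia call was lost without any 1 of its 4 arrays, with values from 0.55 to 0.71, with quantile normalization (0.63) and with centring on ribosomal protein genes (0.59).

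Cxcr4, the signalling receptor of Cxcl12, did not pass on any of its 3 probe sets. On 1370097_a_at the BBDR.+/+ arrays read 3.92 and 3.96, the pre-hyperglycemia arrays 3.50 and 3.82 and the post-hyperglycemia arrays 3.58 and 3.68. This dim probe set had its BBDR.+/+ arrays highest (-0.31 in post-hyperglycemia versus BBDR.+/+, limma adjusted p = 0.185). The brighter 1373661_a_at and 1389244_x_at stood at -0.02 and 0.04 in that comparison. The suffix of the latter marks probes that can also match other transcripts.

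The CC ligands, 17 probe sets of 16 genes, held 0 called in all 3 comparisons. Their median difference in post-hyperglycemia versus BBDR.+/+ was 0.06, with a range from -0.35 to 0.46. Ccl2, which calls monocytes through Ccr2, read 4.77 and 4.86 in BBDR.+/+, 5.32 and 5.11 in pre-hyperglycemia and 5.14 and 5.40 in post-hyperglycemia. All 4 BBDR.lyp/lyp arrays lay above both BBDR.+/+ arrays. The differences from BBDR.+/+ were 0.46 after (95% interval 0.18 to 0.73, limma adjusted p = 0.0607) and 0.40 before hyperglycemia (limma adjusted p = 0.214). On 1 value per gene, which tests fewer items, the first passed (limma adjusted p = 0.0451). Ccr2 read 4.07 and 4.14 in BBDR.+/+, 3.93 and 4.18 in pre-hyperglycemia and 3.77 and 3.82 in post-hyperglycemia, with -0.32 in post-hyperglycemia versus BBDR.+/+ (limma adjusted p = 0.151).

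Ccl11, an attractant of eosinophils, was the highest uncalled member in post- versus pre-hyperglycemia. It read 3.46 and 3.47 in BBDR.+/+, 3.35 and 3.53 in pre-hyperglycemia and 3.97 and 3.75 in post-hyperglycemia. The post-hyperglycemia arrays were the highest 2, but the signal stood only at percentile 10.09 of all probe sets, and neither 0.42 against pre-hyperglycemia (limma adjusted p = 0.1) nor 0.39 against BBDR.+/+ (limma adjusted p = 0.0838) passed. Its receptor Ccr3 was at -0.20 against BBDR.+/+ and -0.08 against pre-hyperglycemia. Ccl22, a ligand of Ccr4 made by dendritic cells and macrophages, read 4.93 and 5.03 in BBDR.+/+, 4.64 and 4.72 in pre-hyperglycemia and 4.66 and 4.60 in post-hyperglycemia on 1370620_at. Both BBDR.lyp/lyp groups lay below BBDR.+/+, at -0.35 after (limma adjusted p = 0.0843) and -0.30 before hyperglycemia. The second Ccl22 probe set was at -0.21 and -0.19, and Ccr4 at -0.07 and -0.12.

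The bright CC ligands passed in no comparison. Ccl9 read from 12.94 to 13.12 and Ccl6 from 11.77 to 12.03 over the 6 arrays. These ligands of Ccr1 are abundant in rodent myeloid cells. Their differences lay between -0.05 and 0.12 in the 3 comparisons, with 95% intervals that ran from -0.29 to 0.36 at most. Ccl5, secreted by T cells, NK cells and platelets, read 8.45 and 8.45 in BBDR.+/+, 8.61 and 8.71 in pre-hyperglycemia and 8.60 and 8.47 in post-hyperglycemia. Its BBDR.+/+ arrays were the lowest, by 0.21 against pre-hyperglycemia (95% interval -0.02 to 0.44), and it did not pass.

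The remaining CC pairs gave small differences. Against BBDR.+/+, post-hyperglycemia stood at 0.01 for Ccl3 and 0.08 for its receptor Ccr1, at 0.07 for Ccl4 and at 0.06 for Ccl19, which guides T cells and dendritic cells into lymphoid tissue. Ccl20 and its receptor Ccr6 stood at -0.18 and -0.09. Ccl27 and its receptor Ccr10, a pair best known from skin, stood at -0.05 and -0.19. The 6 CC receptors had a median of -0.14 and a range from -0.32 to 0.08 there, with 5 of 6 below 0 and 0 called in all 3 comparisons.

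Outside Cxcl9 and Cxcl12, the CXC, CX3C and XC families held no called probe set. Cxcl3, a neutrophil attractant, has 5 probe sets, whose post-hyperglycemia differences from BBDR.+/+ ran from -0.18 to 0.12. Cxcl16, which also acts as a scavenger receptor on macrophages, stood at 0.09 there, and the B cell attractant Cxcl13 at 0.01, with its receptor Cxcr5 at -0.03 and -0.09. Cx3cl1, a ligand tethered to endothelium, and its receptor Cx3cr1 on monocytes stood at 0.18 and -0.03. Xcl1, made by NK cells and CD8 T cells, stood at -0.07. The 7 probe sets of CXC receptors had a median of -0.03 and 0 called in all 3 comparisons.

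The atypical receptors other than Ackr3 did not pass. Ackr1 stood at 0.05 and Ackr4 at 0.15 in post-hyperglycemia versus BBDR.+/+. The 2 probe sets of Ackr2, a scavenger of inflammatory CC chemokines, pointed in opposite directions, at -0.21 and 0.22. Grouped by use, the 17 probe sets of inflammatory ligands had a median of -0.01 with 2 lower, both of Cxcl9, and the 10 of homeostatic ligands had a median of 0.01 with 1 lower, of Cxcl12.

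Genes that act downstream of or beside the chemokine receptors were compared by taking each gene's brightest probe set, where 2.29% of all 14217 genes were called higher and 1.24% lower in post-hyperglycemia versus BBDR.+/+, with a median of 0.04. Of 7 G protein and phospholipase genes, 1 was higher and 2 lower, with a median of 0.06. Gnai2, the inhibitory alpha subunit through which most chemokine receptors signal, rose by 0.41 (limma adjusted p = 0.0472), and its relative Gnai1 fell by 0.66 (limma adjusted p = 0.00783). The Gnai1 probe set was dim, at percentile 13.73 of all probe sets. Gnb1, a beta subunit, fell by 1.11 on its brightest probe set (limma adjusted p = 0.00552), was higher on another by 0.51 (limma adjusted p = 0.0199) and stood at -0.02 on the last, so that its direction depends on the probe set. Of 7 kinase genes 2 were lower and 0 higher, with a median of -0.04. Jak2 fell by 0.58 (limma adjusted p = 0.0268), and Lyn, a Src family kinase of myeloid cells, fell by 1.02 (limma adjusted p = 0.00741) on 1 probe set and stood at 0.12 on its other.

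Receptor shut-off and adhesion genes gave single calls. Of 11 arrestin, receptor kinase and RGS genes, which end receptor signalling, 1 was higher and 1 lower, with a median of 0.05. Arrb2, an arrestin that carries receptors into the cell, rose by 0.59 (limma adjusted p = 0.0117), and the receptor kinase Grk5 fell by 0.47 (limma adjusted p = 0.0312). Of 11 leukocyte adhesion genes 1 was higher and 0 lower, with a median of 0.15, and that 1 was Itgal, an integrin chain of lymphocytes and other leukocytes, at 0.47 (limma adjusted p = 0.0478). Of 10 other chemoattractant genes 0 were called by limma in that comparison, with a median of 0.02, and 0 had an unadjusted p under 0.05.

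In post- versus pre-hyperglycemia, where 0.703% of genes were higher and 0.668% lower, the calls in these 5 lists were Gnb1 (-0.87, limma adjusted p = 0.0322) and Lyn (-0.88, limma adjusted p = 0.0285). Both held for the brightest probe set alone. The others stood at 0.22 and -0.14 for Gnb1 and at 0.28 for Lyn. In pre-hyperglycemia versus BBDR.+/+, where 0.584% of genes were higher and 0.218% lower, 0 genes of the 5 lists were called by limma, and 7 (Gnai1, Fgr, Grk6, Rgs5, Icam1, Sele and Itgal) had an unadjusted p under 0.05. All of these but Gnai1 were higher. Over all probe sets 6.43% were higher and 4.95% lower at that unadjusted p.

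Markers of the cells that make or carry chemokines moved with some of these groups. The part of cell numbers in the results above was not tested. A summed signal adds the signals of a list off the log2 scale and is then put back on it. The probe sets with the highest signal therefore weigh most in it, whatever the amounts of their transcripts. The summed signal of 11 T cell markers was 9.14 and 9.15 in BBDR.+/+, 8.94 and 9.06 in pre-hyperglycemia and 8.96 and 8.88 in post-hyperglycemia, with all 4 BBDR.lyp/lyp arrays below BBDR.+/+, as Cxcl9 was. Of the T cell markers 1 was lower in post-hyperglycemia versus BBDR.+/+, Cd8b (-0.45, limma adjusted p = 0.0353), with a median of -0.17, and Cd3e (-0.44) and Cd3d (-0.47) did not pass. There 10 of 11 had a negative difference, and Cd8a stood at 0.04. In pre-hyperglycemia versus BBDR.+/+ 8 were negative and 3 positive, Cd4 (0.13), Cd8a (0.12) and Cd2 (0.01). T lymphopenia is the known trait of lyp/lyp rats, and T cell markers here were dim, down to percentile 1.17 for Trat1. The 5 NK cell markers, from 7.54 to 7.70 over all arrays, held 0 called.

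The summed signals of the neutrophil list and of the monocyte and Kupffer cell list lay higher on every BBDR.lyp/lyp array, but not every gene did. Those of the NK cell, sinusoidal endothelium and stellate cell lists did too, so this direction, which Ackr3 shared, was not particular to myeloid markers. The dendritic cell list overlapped between the groups. The summed signal of 5 neutrophil markers was 6.97 and 6.97 in BBDR.+/+, 8.12 and 7.79 in pre-hyperglycemia and 7.80 and 7.89 in post-hyperglycemia. S100a8 and S100a9 were called higher in both BBDR.lyp/lyp groups, by 1.29 and 1.46 after and by 1.21 and 1.66 before hyperglycemia, and the other 3 of the list were not. Csf3r, Camp and Mmp8 stood at 0.23, 0.04 and 0.04 after and at 0.12, 0.05 and 0.12 before hyperglycemia. The 7 monocyte and Kupffer cell markers summed to 12.79 and 12.79 in BBDR.+/+, 13.07 and 13.08 in pre-hyperglycemia and 13.20 and 13.08 in post-hyperglycemia. Of these, Cd163 (0.73), Cd5l (0.43) and Clec4f (0.42) rose in post-hyperglycemia versus BBDR.+/+, where a second Cd5l probe set stood at 0.07 (limma adjusted p = 0.92). Cd14 went the other way. It fell by 0.99 from pre-hyperglycemia and stood at -0.53 against BBDR.+/+ (limma adjusted p = 0.053), with both post-hyperglycemia arrays below both BBDR.+/+ arrays.

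The 5 sinusoidal endothelium markers summed to 11.76 and 11.58 in BBDR.+/+, 11.97 and 11.90 in pre-hyperglycemia and 11.85 and 11.92 in post-hyperglycemia, and of them Pecam1 rose by 0.49 in post-hyperglycemia versus BBDR.+/+ (limma adjusted p = 0.0341). The 6 stellate cell markers summed to 10.55 and 10.51, 10.80 and 10.85, and 10.58 and 10.66 in the same order. Its genes did not move together. In pre-hyperglycemia versus BBDR.+/+ 3 had a positive and 3 a negative difference. In post-hyperglycemia versus BBDR.+/+ 4 were positive and 2 negative, Dcn (-0.31) and Lrat (-0.20). Col1a1 rose by 0.60 in pre-hyperglycemia versus BBDR.+/+ on its brightest probe set and by 0.54 on its other. In post- versus pre-hyperglycemia it fell by 0.51 on the first and stood at -0.13 on the other, and against BBDR.+/+ post-hyperglycemia stood at 0.09 on the first and rose by 0.41 on the other (limma adjusted p = 0.0476). B cell (3 genes), dendritic cell (4), bile duct (3) and pancreatic acinar (5) markers held 0 called in all 3 comparisons, and of 6 hepatocyte markers Tat alone was called, at -0.88 in post-hyperglycemia versus BBDR.+/+.

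**Figure D4:**
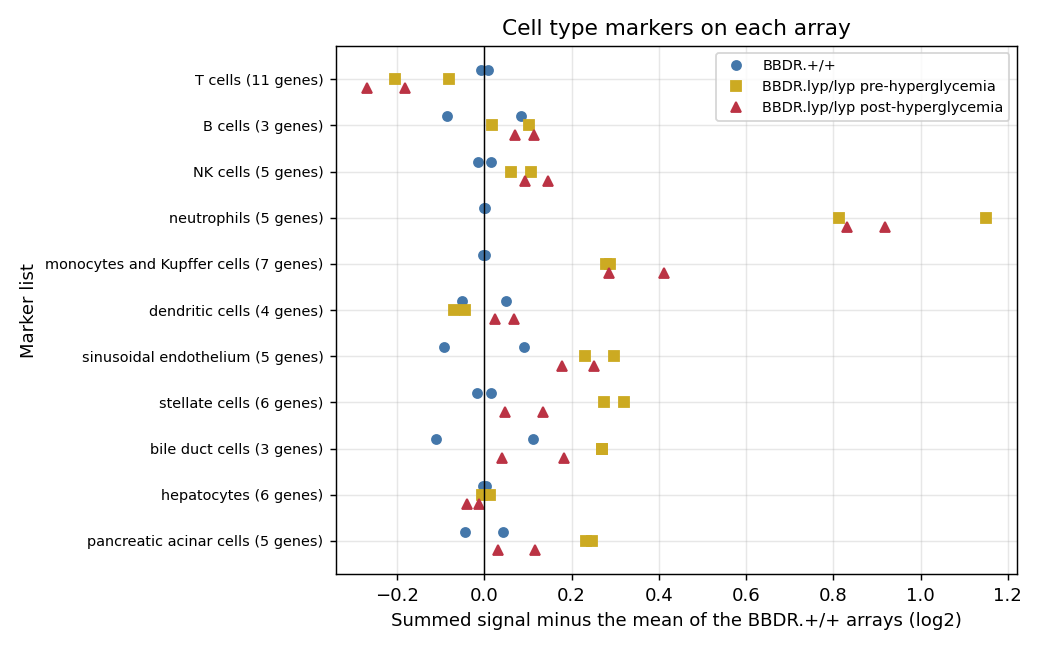
Summed signal of each list of cell type markers on each array (log2, with each gene's brightest probe set), minus the mean of the BBDR.+/+ arrays. Points are arrays, coloured by group. The sums of neutrophil and of monocyte and Kupffer cell markers lie above 0, and that of T cell markers below 0, on all 4 BBDR.lyp/lyp arrays. The sums of NK cell, sinusoidal endothelium, stellate cell, B cell, bile duct and pancreatic acinar markers also lie above 0 on them.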

How the data were processed

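Liver RNA was hybridized to 6 Affymetrix rat arrays, 2 in each of 3 groups, taken from the sample titles. The authors quantified the arrays in Affymetrix Expression Console and normalized them in Partek Genomic Suite, and the deposited values are on the log2 scale, 1 per probe set. Neither their versions nor the algorithm of normalization is given in the sources used here. The amplification kit differs between labels and methods. Array number and signal, not read depth, limit the precision.

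Of the probe sets, 57 controls were set aside, and symbols came from the platform annotation. All 55 members' Entrez identifiers were found under the same symbol in a current rat gene table. limma 3.58.1 (R 4.3.3) was fitted to all 6 arrays with 1 mean per group, variances moderated with 3 residual degrees of freedom and 7.7 prior ones, no filter, and Benjamini-Hochberg adjustment over 31042 probe sets. The members, marker lists and pathway lists were chosen with earlier results of these data known. Named were called members, the 5 brightest genes, the 3 largest uncalled differences of each comparison, ligand and receptor pairs, and at most 3 genes of a list with the smallest p, beside others chosen after their values were seen (Trat1, Cxcl10 and Cxcl11 promoters). The scripts were tested on simulated data, with noise at the moderated spread after a first run at the unmoderated spread had recovered fewer changes. Rank product with 100 permutations, at a share of false positives under 0.2, and the other alternatives are given in the closing section. The rank product null was changed after a first version, which treated ratios that share arrays as independent, had been run. The results of 1 pathway list are not reported here. Other ages and BBDR.lyp/+ rats were not analysed here.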

Additional observations from a re-analysis of the deposited data

How the results depend on the processing

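With 2 arrays per group, precision was limited by array number, and 30 of 55 members lay in the dimmer part of the array. Of 120 counts of called members under alternatives, 83 kept within 1.5 times of the limma counts, which were 1 higher and 3 lower (post-hyperglycemia versus BBDR.+/+), 0 and 1 (post- versus pre-hyperglycemia) and 1 and 1 (pre-hyperglycemia versus BBDR.+/+), 33 were lower and 4 higher. The methods' t-test and the covariate for the 3' to 5' difference gave 0 in every comparison and direction. The t-test passed 0, 0 and 1 of all probe sets. At an unadjusted p under 0.05 it had 8, 3 and 7 members, beside 3362, 2790 and 2784 of all 31042 probe sets. Kept to the top 30% of probe sets, which leaves 10 members, the counts were 0 and 1, 0 and 1, and 0 and 0. The top 60% and the intensity trend each gave 2 lower in pre-hyperglycemia versus BBDR.+/+. Centring on ribosomal protein genes and quantile normalization each gave 0 higher there, and rank product 0 higher in post-hyperglycemia versus BBDR.+/+. The mean of the probe sets of a gene gave 2 higher against BBDR.+/+ and 0 lower against pre-hyperglycemia. Its 1 value for Cxcl12, -0.45 against BBDR.+/+, averages all 3 probe sets, of which 1369633_at alone stood at 0.01. Each gene's brightest probe set alone, an alternative chosen after seeing the data, gave 1 and 0 lower in these comparisons. Leaving out 1 array gave 0 to 1 higher and 2 to 3 lower, 0 and 0 to 1, and 0 to 1 and 0 to 1. The numbers of the arrays do not pair the samples by their labels. The methods describe liver taken at several ages, before and during hyperglycemia. Whether the pre- and post-hyperglycemia arrays share rats is not given in the sources used here, and the main fit treats them as separate. Deviations of arrays with the same number correlated with r of 0.11 to 0.261, and the replicate block gave 2 lower in post- versus pre-hyperglycemia and the same counts otherwise, which are 1 and 3, 0 higher, and 1 and 1. Of 2295 differences of named probe sets under alternatives, 2252 kept their side of the threshold, 2115 of them with the same sign and 137 with the sign turned but passing in neither fit. A further 36 stopped and 6 began to pass, and 1 turned and passed, the Cxcl12 gene mean set against 1369633_at. A gene mean is counted here under each named probe set of its gene. Most of the 2295 passed in neither fit, so the share kept says little of the calls. The 36 that stopped come only from the few differences that limma called, of Cxcl9, Cxcl12 and Ackr3. Over all probe sets the limma calls, 1599, 677 and 223, ranged over alternatives from 0 to 2371, 0 to 1225 and 1 to 496, and without BBDR.+/+ replicate 2 were 291 and 12 in the comparisons with BBDR.+/+. A group left with 1 array is assumed to vary like the others, and adds nothing to the estimated spread. Centring on ribosomal protein genes moved the share of higher calls before hyperglycemia from 64.6% to 50.8%.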
